A study of Mus musculus with 2 samples.

Results

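The nuclei described here are GABAergic interneurons of the newborn mouse cerebellum that carry transcripts of Htr7, Kit and Itga8. They were selected on the unique molecular identifier (UMI) counts of 11 genes, a UMI being 1 counted RNA molecule. A nucleus had to hold 2 or more UMIs summed over Gad1, Gad2 and Slc32a1, the genes for GABA synthesis and vesicular loading, and at most 2 over the Purkinje cell genes Calb1, Skor2 and Car8. It also had to hold 2 or more UMIs summed over Htr7, Kit and Itga8, and more of these than of C1ql3 and Tll2, which mark another set of interneurons. Of 11803 barcodes in all, 10033 nuclei were kept, with at least 1000 genes and at most 5% mitochondrial UMIs, and 1979 of these passed the GABAergic gate. The rule took 852 of them, 270 in the control library and 582 in the library labelled cKO, and they are called Htr7/Kit interneurons below. The 294 gate nuclei with the opposite balance, 106 and 188 by library, are called C1ql3/Tll2 interneurons, and 216 and 617 gate nuclei fell in neither set.

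The study asked what loss of Tox3, which encodes a nuclear protein of the TOX high mobility group box family, does to the developing cerebellum. The control library came from Cre-negative littermates, whose genotype is given as Tox3f/f and whose library name also allows Tox3f/+. The cKO library came from Nestin-Cre;Tox3f/f mice, in which Cre is driven by the Nestin promoter in neural precursors and so acts in their descendants of many types. Cre was present in 1 group only, so Cre itself and the deletion cannot be told apart. All mice were at postnatal day 1, and nuclei from 12 snap-frozen cerebella were pooled into each library, so no nucleus can be traced to an animal and each group has 1 library. No difference between the libraries therefore has a replicate check, no test between groups was run, and the 95% intervals below cover counting error only, not the spread between nuclei, animals or libraries.

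Cerebellar GABAergic interneurons arise from Pax2-expressing precursors that leave the ventricular zone and divide and migrate through the white matter around birth. They settle as Golgi and other interneurons of the inner layers and, later, as the basket and stellate cells of the molecular layer. Kit is a receptor tyrosine kinase known in basket and stellate cells, and its ligand, Kitl, is made by Purkinje cells. Htr7 encodes a serotonin receptor coupled to adenylyl cyclase, Itga8 encodes an integrin subunit that binds the matrix, and Nxph1 encodes neurexophilin 1, a secreted ligand of alpha-neurexins. In mm10 (GRCm38) Kit lies at chr5:75574916-75656722 on the plus strand, Htr7 at chr19:35958734-36057507 and Itga8 at chr2:12106632-12301922, both on the minus strand. Nxph1 lies at chr6:8948431-9249032 and Inpp4b at chr8:81342556-82127914, both on the plus strand, and all counts are over whole genes, introns included, as nuclear RNA requires.

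Nxph1 and Inpp4b, an inositol phosphatase gene, took no part in the selection and were higher in these interneurons than in the other gate nuclei, so the 250 bases before their RefSeq transcription starts are shown (GRCm38.p6, plus strand, chr6:8949769-8950018 and chr8:81342312-81342561). Capitals mark matches to CANNTG, the E-box core bound by basic helix-loop-helix factors such as Ptf1a, and the pattern reads the same on both strands.
Nxph1: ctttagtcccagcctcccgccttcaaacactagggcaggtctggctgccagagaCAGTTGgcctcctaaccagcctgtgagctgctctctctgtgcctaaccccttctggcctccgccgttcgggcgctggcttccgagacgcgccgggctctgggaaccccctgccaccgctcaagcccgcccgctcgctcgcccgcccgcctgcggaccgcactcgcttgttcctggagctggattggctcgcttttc
Inpp4b: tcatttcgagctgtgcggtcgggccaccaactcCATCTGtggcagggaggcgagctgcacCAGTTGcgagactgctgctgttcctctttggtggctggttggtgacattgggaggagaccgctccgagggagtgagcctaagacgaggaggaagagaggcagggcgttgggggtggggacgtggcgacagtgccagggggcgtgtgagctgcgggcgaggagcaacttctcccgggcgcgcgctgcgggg
The Nxph1 window held 1 match and the Inpp4b window 2. The pattern is common, as 66.2% of 32851 promoter windows of this length held it, and no binding was measured here.

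Htr7/Kit interneurons differed little in depth between libraries. Control nuclei had medians of 5447 UMIs and 2534 genes, and cKO nuclei of 4934 UMIs and 2370 genes. Over all kept nuclei the medians were 4711 and 4495 UMIs. The libraries shared 9 barcode sequences in all and 0 among the 852 nuclei. The share of nuclei with an Xist UMI, a sign of female origin, was 56.8% of kept control nuclei and 69.4% of kept cKO nuclei, and 58.1% and 71.6% of the Htr7/Kit interneurons, so the pools differed in their sex mix. Values for nuclei of each sex are given beside the results they move most.

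Kit carried most of the selection. It was detected in 254 of the 270 control and 548 of the 582 cKO nuclei, whereas Htr7 was detected in 92 and 192 and Itga8 in 57 and 122. Nuclei with Kit and neither of the other 2 genes made up 53.7% of the control set and 54.5% of the cKO set. Nuclei with Htr7 or Itga8 beside Kit made up 40.4% and 39.7%, and 16 and 34 nuclei had no Kit UMI. The label therefore holds for the set as a whole more than for each nucleus, because most of its nuclei showed no Htr7 at this depth.

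The summed count of Htr7, Kit and Itga8 had a median of 4 in control and 3 in cKO nuclei, and reached 28 and 23. Nuclei just inside the threshold, with a sum of 2, numbered 65 and 169. Their Nxph1 level was 1726 and 1651 counts per 1000000 UMIs (CPM) and their Pax2 level 710 and 669 CPM. Gate nuclei just outside it, with a sum of 1 and no C1ql3 or Tll2 UMI, numbered 81 and 209 and stood at 950 and 1059 CPM of Nxph1 and 604 and 655 CPM of Pax2. Inpp4b stood at 507 and 474 CPM just inside and at 439 and 478 CPM just outside. Gate nuclei just outside the threshold thus still held these genes. Nxph1 was lower there in both libraries, Pax2 slightly so, and Inpp4b in control only.

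By the rule itself, Kit stood at 624 CPM in both libraries and Htr7 at 102 and 106 CPM in the Htr7/Kit interneurons. In the C1ql3/Tll2 interneurons Kit stood at 148 and 129 CPM, and Htr7 at 2 UMIs in control and 0 in cKO. Kitl, the ligand gene, was low in the Htr7/Kit interneurons, at 29.0 and 35.1 CPM, and was at 593 and 758 CPM in nuclei passing a Purkinje cell gate.

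As a level over all nuclei of a set, Nxph1 was higher in the Htr7/Kit interneurons than in each of the other groups. It stood at 4030 CPM in the control library and 3696 CPM in the library labelled cKO. The C1ql3/Tll2 interneurons held 2159 and 2384 CPM of Nxph1, the other gate nuclei 900 and 1056 CPM, Purkinje gate nuclei 125 and 204 CPM and granule gate nuclei 41 and 82 CPM. The order was the same in both libraries. Nuclei were also thinned to 3000 UMIs, and shallower ones were left out, 14 control and 62 cKO Htr7/Kit interneurons. Of the rest, 72.7% of 256 control and 75.4% of 520 cKO Htr7/Kit interneurons had an Nxph1 UMI. The C1ql3/Tll2 interneurons had one more often, in 93.3% and 94.2% of nuclei, and nuclei with Kit alone less often, in 65.0% and 66.8%. The higher level thus came with a lower share of positive nuclei than in the C1ql3/Tll2 set. In microglia, which should lack the gene, 4.55% of 22 and 16.7% of 42 nuclei had one, with exact intervals of 0.115% to 22.8% and 6.97% to 31.4%. A further 16 and 49 microglia had under 3000 UMIs and were left out. The microglia used stand for the level that free RNA can give. Nuclei with any Gad1, Gad2 or Slc32a1 UMI were left out of them, so that level may be too low for interneuron genes.

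Inpp4b stood at 816 and 858 CPM in the Htr7/Kit interneurons, against 266 and 311 CPM in the C1ql3/Tll2 interneurons and 394 and 382 CPM in the other gate nuclei. Microglia also held it, at 466 and 534 CPM. Pax2, the transcription factor gene of the interneuron precursors, did not separate the sets, at 721 and 708 CPM in the Htr7/Kit and 781 and 695 CPM in the C1ql3/Tll2 interneurons, and was at 30 and 38 CPM in Purkinje gate nuclei. Tfap2b, another transcription factor gene of the GABAergic lineage, was at 336 and 412 CPM in the Htr7/Kit interneurons and 408 and 496 CPM in the C1ql3/Tll2 interneurons. The GABAergic interneuron label is therefore borne by Pax2 and Tfap2b, which the rule did not use.

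**Figure D1:**
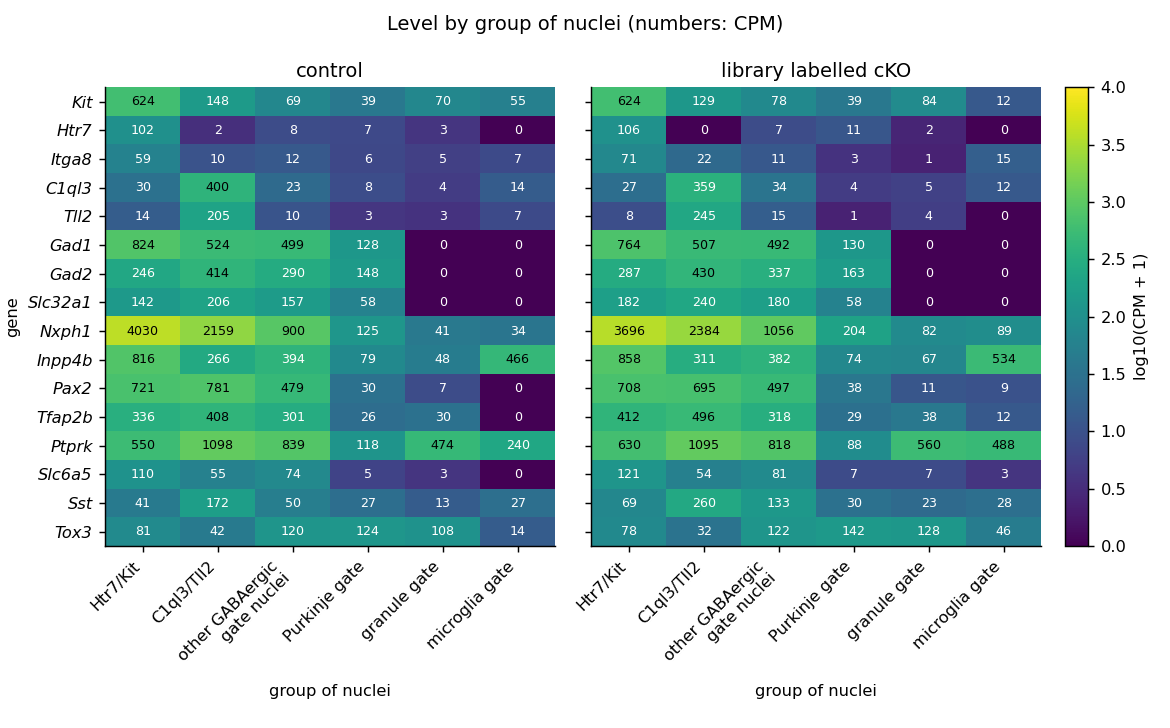
Heat map of the level (CPM, colour on a log scale) of 16 genes in 6 groups of nuclei, with 1 panel for each library. The Htr7/Kit interneurons hold the highest Nxph1 level in both panels (4030 and 3696 CPM), and Pax2 is similar in the Htr7/Kit and C1ql3/Tll2 interneurons.

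Slc6a5, the neuronal glycine transporter gene and no part of the rule, stood at 110 and 121 CPM in the Htr7/Kit interneurons, 55 and 54 CPM in the C1ql3/Tll2 interneurons and 5 and 7 CPM in Purkinje gate nuclei. At 3000 UMIs per nucleus, 27.0% and 27.5% of the Htr7/Kit interneurons had a Slc6a5 UMI. None of the 22 and 42 microglia had one, which allows shares of up to 13.6% and 7.14% by a floor of 3 counts, and 15.4% and 8.41% by the exact interval. As their gate took no nucleus with a Gad1, Gad2 or Slc32a1 UMI, this background may be too low. Sst, the somatostatin gene, was lower in the Htr7/Kit interneurons, at 41 and 69 CPM, than in the C1ql3/Tll2 interneurons, at 172 and 260 CPM. In thinned nuclei Sst was found in 7.42% and 12.9% of the Htr7/Kit interneurons. It was found in 13.6% (2.91 to 34.9) and 14.3% (5.43 to 28.5) of the few microglia. The Sst shares of the Htr7/Kit set were thus not set apart from this background, whose intervals are too wide to show absence. Single Htr7/Kit nuclei held up to 13 Sst UMIs in control and 16 in cKO. The C1ql3/Tll2 shares were 28.8% and 42.0%.

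The Htr7/Kit interneurons were not uniform. Nxph1 had 5 or more UMIs in 160 of the control nuclei (59.3%) and 332 of the cKO nuclei (57.0%), 1 to 4 UMIs in 46 and 119, and none in 64 and 131. Per 10000 UMIs, the median Nxph1 count was 57.6 in control and 54.2 in cKO nuclei with an Htr7 or Itga8 UMI, with or without Kit. In nuclei with Kit alone it was 6.57 and 6.64. The 10th to 90th percentile ran from 0 to 163 in the first control set and from 0 to 67.4 in the second. C1ql3/Tll2 interneurons had medians of 21.3 and 22.5 and a narrower range, from 5.89 to 38.3 in the control library.

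**Figure D2:**
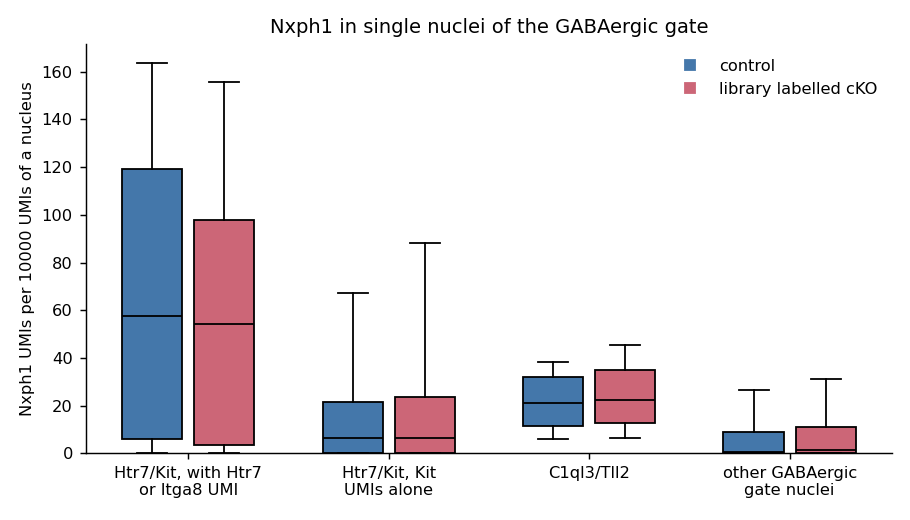
Nxph1 UMIs per 10000 UMIs of each nucleus in 4 sets of GABAergic gate nuclei of each library. The line is the median, the box spans the 25th to 75th percentile and the whiskers the 10th to 90th. Nuclei with Htr7 or Itga8 have medians of 57.6 and 54.2, above those with Kit alone (6.57 and 6.64).

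The contrast between the Htr7 or Itga8 nuclei and the Kit-alone nuclei was alike in both libraries for several genes. Nxph1 was 2.74-fold higher in the first in control and 2.78-fold higher in cKO, and Inpp4b was 2.27-fold and 2.43-fold higher. Klhl1, which encodes a Kelch-like actin-binding protein, was 2.22-fold and 2.54-fold higher, and Pnoc, the prepronociceptin gene, 1.81-fold and 1.55-fold higher. Klhl1 and Pnoc were named after their values were seen. Rora, the nuclear receptor gene used by Purkinje cells and molecular layer interneurons, went the other way, with ratios of 0.600 and 0.547. Tox3 had ratios of 0.600 (0.418 to 0.854) and 0.547 (0.413 to 0.719), at 60.3 against 100.5 CPM in control and 53.8 against 98.2 CPM in cKO nuclei. Pax2 took opposite sides, at 0.847 in control and 1.25 in cKO.

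Splitting the same nuclei by Nxph1 itself gave larger contrasts, and this split was chosen after the values were seen. In nuclei with 5 or more Nxph1 UMIs, Siah3, of the Siah ubiquitin ligase family, was 11.7-fold higher in control and 13.8-fold higher in cKO than in nuclei with fewer. Cdh22, a cadherin gene, was 4.86-fold and 4.77-fold higher, Inpp4b 4.74-fold and 4.55-fold, and Klhl1 5.66-fold and 4.02-fold. Among synaptic genes, Lrrc4c, which encodes the netrin-G1 ligand, was 3.42-fold and 2.81-fold higher, Shisa9, an AMPA receptor auxiliary subunit gene, 6.04-fold and 3.00-fold higher, and Neto1, a kainate receptor auxiliary subunit gene, 3.39-fold and 2.99-fold higher. These genes were ranked by the weaker interval bound of the 2 libraries, so lying on the same side in both was set by that choice.

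The nuclei with under 5 Nxph1 UMIs were higher in other genes. Zfhx3 and Zfhx4, zinc-finger homeobox genes, had ratios of the first set to the second of 0.257 and 0.214 in control and 0.129 and 0.261 in cKO. Chrm3, a muscarinic acetylcholine receptor gene, had ratios of 0.269 and 0.246, and Ror1, a Wnt receptor gene, 0.329 and 0.372 (control, then cKO). Deeper nuclei reach 5 UMIs more easily, and the median depth was 5831 against 4766 UMIs in control and 5103 against 4452 UMIs in cKO nuclei. The part of depth in the split was not tested.

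The share of Htr7/Kit interneurons depended on what they were counted against. They made up 7.08% (6.28 to 7.94, exact binomial interval) of the kept control nuclei and 9.36% (8.65 to 10.1) of the kept cKO nuclei, a ratio of 1.32 (1.14 to 1.53). Within the GABAergic gate they made up 45.6% (41.5 to 49.7) and 42.0% (39.4 to 44.6), a ratio of 0.920 (0.795 to 1.07). The whole gate was 1.44-fold more frequent in the library labelled cKO (1.31 to 1.59), at 15.5% and 22.3% of kept nuclei.

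Granule lineage nuclei differed between libraries at the same time. Nuclei passing the granule gate numbered 1210 in the control library and 920 in the library labelled cKO. Outside that gate, Htr7/Kit interneurons were 10.4% of 2606 control nuclei and 10.99% of 5297 cKO nuclei, a ratio of 1.06 (0.916 to 1.23). Against the C1ql3/Tll2 interneurons alone they were 71.8% and 75.6% of the 2 sets together, a ratio of 1.05 (0.910 to 1.22). The higher share in the library labelled cKO thus held against all kept nuclei and was not detectable against the other 3 denominators. From shares alone, more interneurons and fewer other nuclei cannot be told apart.

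**Figure D3:**
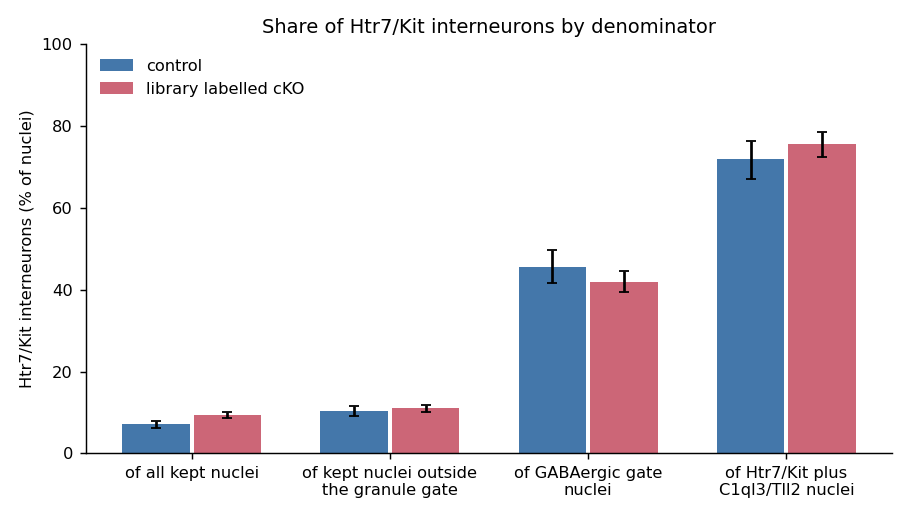
Share of Htr7/Kit interneurons (percent, bars from 0, with exact 95% binomial intervals) in each library over 4 denominators. The libraries stand apart over all kept nuclei (7.08% and 9.36%) and their intervals overlap for the other denominators.

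The gate nuclei in neither set showed the widest difference, at 5.66% of kept control and 9.92% of kept cKO nuclei, a ratio of 1.75 (1.499 to 2.06), while C1ql3/Tll2 interneurons had a ratio of 1.09 (0.854 to 1.395). Htr7/Kit interneurons with 5 or more Nxph1 UMIs had a ratio of 1.27 (1.05 to 1.55) and those with fewer 1.395 (1.11 to 1.76), with overlapping intervals.

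Tox3, at chr8:90247040-90348343 on the minus strand, is the gene targeted in the cKO mice, and it was not lower in the Htr7/Kit interneurons of the library labelled cKO. It had 143 UMIs in 70 of the 270 control nuclei (81.2 CPM) and 253 UMIs in 119 of the 582 cKO nuclei (78.5 CPM), a ratio of 0.967 (0.785 to 1.20). In thinned nuclei it was found in 17.2% of control and 13.7% of cKO Htr7/Kit interneurons. Among the 22 and 42 microglia it was found in 4.55% (0.115 to 22.8) and 14.3% (5.43 to 28.5). Both shares of the Htr7/Kit interneurons lay within the wide microglia interval of their library, so neither was set apart from the background. In all other kept nuclei the ratio was 1.15 (1.09 to 1.21). Counts over the whole gene may still hold RNA from an allele with an excised exon, so these values check neither the label nor the deletion, and every direction below is that of the library labelled cKO.

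Split by the sex of the nucleus, the Tox3 values of the 2 libraries parted. Nuclei with a Y-linked and no Xist UMI held 52 control UMIs (81.5 CPM) and 14 cKO UMIs (20.5 CPM), a ratio of 0.252 (0.129 to 0.462). Nuclei with Xist held 88 and 224 UMIs (81.9 and 92.6 CPM), a ratio of 1.13 (0.880 to 1.46). Over all kept nuclei the ratios were 1.09 (0.987 to 1.20) without and 1.12 (1.05 to 1.19) with Xist, so the low value did not extend to the rest of the cerebellum. Nuclei with 5 or more Nxph1 UMIs also had a lower Tox3 ratio, 0.717 (0.519 to 0.994), than those with fewer, 1.13 (0.848 to 1.51). The splits used other genes and left 14 to 224 UMIs in a group, and the differences between them were not tested. Of the related genes, Tox was at 1.02 (0.873 to 1.20) and Tox4 at 0.930 (0.740 to 1.17).

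Few genes separated the Htr7/Kit interneurons of the 2 libraries. Of 7272 genes with 100 or more UMIs over both libraries, 219 (3.01%) differed by 1.5-fold or more, 115 (1.58%) higher and 104 (1.43%) lower in the library labelled cKO. The median log2 ratio of all measured genes was 0.003. A few nuclei can carry a gene's whole sum, so each gene was also counted without the 2% of nuclei that held most of its UMIs, 5 in control and 12 in cKO. Of the 219 genes, 189 stayed past 1.5-fold in the same direction and 2 changed direction, but 381 genes then passed, 135 higher and 246 lower.

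None of the genes that mark these interneurons passed 1.5-fold. Kit had a ratio of 1.00 (0.929 to 1.08), Htr7 of 1.04 (0.862 to 1.25) from 180 and 341 UMIs, and Itga8 of 1.21 (0.955 to 1.54) from 104 and 230 UMIs, all 3 used in the selection. Of genes not used, Inpp4b was at 1.05 (0.986 to 1.12), Pax2 at 0.982 (0.916 to 1.05) and Slc6a5 at 1.10 (0.922 to 1.31). Nxph1 was at 0.917 (0.891 to 0.945), and Tfap2b at 1.23 (1.11 to 1.36). In all other kept nuclei Nxph1 was 1.77-fold, Pax2 1.47-fold and Tfap2b 1.55-fold higher in the library labelled cKO, alongside the larger share of GABAergic nuclei there.

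Fate, transmission and synapse lists had no gene past the fold. Beside 3.01% of all measured genes, none of the 10 measured genes of GABA and glycine synthesis and transport, the 8 GABAergic fate factors, the 9 molecular layer interneuron genes or the 12 GABA-A and glycine receptor genes passed 1.5-fold, with summed ratios of 1.03, 1.06, 1.01 and 1.02. None passed among the 22 glutamate receptor genes, the 15 neurexophilin, neurexin and neuroligin genes, the 28 voltage-gated channel genes and the 20 genes of neuronal maturation either, with sums at 1.02, 1.02, 1.00 and 1.05. Nlgn1, a postsynaptic adhesion gene of the neuroligin family, was at 1.05 (1.00 to 1.09). The first of these lists holds Gad1, Gad2 and Slc32a1 and the molecular layer list holds Kit, which were used in the selection. These counts of 0 are a description of the lists.

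Kit signalling, which Kit starts at the membrane, was examined as a list. None of its 17 measured genes, which include Kit from the rule, passed 1.5-fold, beside 3.01% of all measured genes, and their sum had a ratio of 1.02 (0.992 to 1.06). The kinase gene Fyn was at 1.03 (0.912 to 1.16). The 6 measured integrin genes and ligands also had none past the fold, with Itgb1, the common beta subunit gene, at 1.01 (0.851 to 1.20).

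Serotonin receptors form a short list with few counts. Of 13 listed, 5 were measured, and 3 of these passed 1.5-fold upward (background 1.58%) and 1 downward (background 1.43%). Htr2b, a receptor coupled to phospholipase C, stood at 42.0 CPM in control from 74 UMIs and at 64.8 CPM in cKO from 209 UMIs, a ratio of 1.54 (1.18 to 2.04), and its ratio in all other kept nuclei was 0.996. Htr2c, of the same class, had 16 UMIs in 11 nuclei and 84 UMIs in 33 nuclei, a ratio of 2.87 (1.67 to 5.25), and 2.03 (0.7998 to 6.13) without the highest 2% of nuclei. Htr4, which like Htr7 is coupled to adenylyl cyclase, was at 1.64 (1.08 to 2.55) from 31 and 93 UMIs, and at 1.47 in other nuclei.

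Htr1f, an inhibitory receptor, was lower, at 56.8 CPM in control and 33.2 CPM in cKO, a ratio of 0.585 (0.441 to 0.776), and was at 0.741 in other nuclei. The list as a sum was at 238 and 270 CPM, a ratio of 1.13 (1.01 to 1.28). Htr7, used in the selection, is part of this sum, at a ratio of 1.04. The other 4 genes had 16 to 209 UMIs in a library, and the part of free RNA in them was not tested.

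Guidance and migration receptors held 3 of 23 measured genes past 1.5-fold upward and 0 downward, beside 1.58% and 1.43% of all measured genes. Epha6, an ephrin receptor gene, stood at 245 CPM in control and 378 CPM in cKO, a ratio of 1.55 (1.39 to 1.73). It was detected in 140 and 302 nuclei, 51.9% of each, and its ratio in all other kept nuclei was 0.960 (0.933 to 0.988). In nuclei with a Y-linked and no Xist UMI the Epha6 ratio was 1.94 (1.58 to 2.401). Unc5d, a netrin receptor family gene, stood at 196 and 305 CPM, a ratio of 1.55 (1.37 to 1.76), with 1.30 in other nuclei. It was at 1.99 (1.47 to 2.70) in nuclei with a Y-linked and no Xist UMI and 1.32 (1.15 to 1.52) in those with Xist. Epha4 was at 1.90 (1.28 to 2.90) from 33 and 115 UMIs, with 1.44 in other nuclei.

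Dcc, the netrin-1 receptor gene, was lower, at 3176 CPM in control and 2312 CPM in cKO, a ratio of 0.728 (0.703 to 0.754), short of the fold. In granule gate nuclei Dcc had a ratio of 0.397 and in all other kept nuclei 0.444. Unc5c and Robo1, receptor genes for netrin and slit, were at 1.02 (0.998 to 1.03) and 1.00 (0.945 to 1.06).

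Ranked by the bound of the interval nearest to 1, the 12 genes highest in the library labelled cKO were Chst9, Apoe, Eya1, Htr2c, Sash1, Phf10, Gm42397, Epha6, Unc5d, Pcdh10, Hs3st4 and Gm28370. Chst9, a sulfotransferase gene, had 20 control and 104 cKO UMIs, a ratio of 2.84 (1.75 to 4.84), and its ratio in other nuclei was 2.29. With nuclei thinned to 3000 UMIs and selected again, which left 166 control and 318 cKO nuclei, the Chst9 ratio was 1.13 (0.401 to 3.63). Eya1, a transcriptional coactivator gene, had 21 and 104 UMIs and a ratio of 2.71 (1.68 to 4.56), against 1.24 in other nuclei. Phf10, which encodes a subunit of a chromatin remodelling complex, had 20 and 88 UMIs and a ratio of 2.40 (1.47 to 4.13), against 1.00 in other nuclei, and 1.39 (0.517 to 4.34) when thinned. Pcdh10, a protocadherin gene, was at 1.74 (1.37 to 2.23), and Hs3st4, a heparan sulfate sulfotransferase gene, at 1.64 (1.36 to 2.001). Without nuclei holding 3 or more UMIs of another class's markers they were at 1.25 (0.903 to 1.755) and 1.24 (0.973 to 1.59). Pcdh10 was at 1.28 (0.851 to 1.93) in nuclei with a Y-linked and no Xist UMI, and Hs3st4 at 0.896 (0.646 to 1.25) when thinned. Gm42397 was at 2.06 but turned to 0.632 without its highest nuclei.

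Apoe, the lipid carrier gene of glia, stood at 85.7 CPM in 56 control nuclei and 177 CPM in 198 cKO nuclei, a ratio of 2.06 (1.72 to 2.49), and its ratio in all other kept nuclei was 2.19. The 9 measured glial genes summed to 1004 and 1141 CPM, a ratio of 1.14 (1.07 to 1.20), with Apoe and Gdf10 past the fold, and to 1768 and 2469 CPM in the other nuclei. Of the Htr7/Kit interneurons, 58 control (21.5%) and 132 cKO (22.7%) nuclei held 3 or more UMIs of glial markers. With 5 or more Nxph1 UMIs the glial ratio was 0.963, and with fewer 1.495. With doublets called by Scrublet removed, Apoe was at 1.54 (1.21 to 1.98) and the glial sum at 1.05 (0.978 to 1.13), and in nuclei with a Y-linked and no Xist UMI Apoe was at 1.64 (1.13 to 2.43). The part of free glial RNA was not tested.

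**Figure D4:**
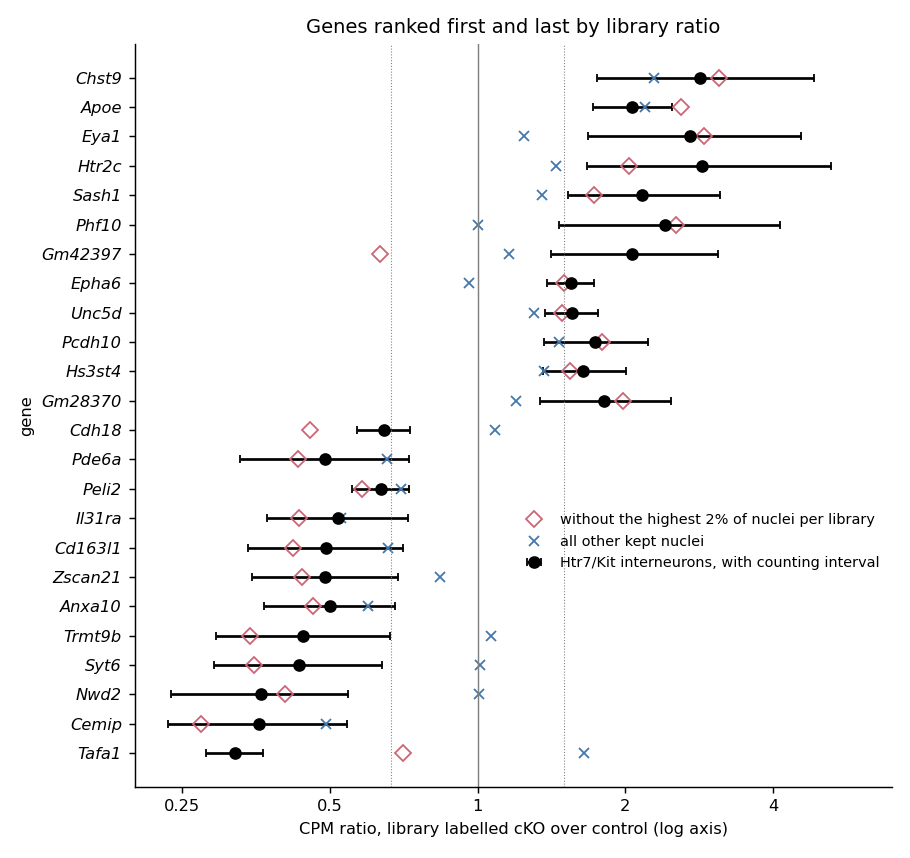
Level in the library labelled cKO over that in control (log axis) of the 12 genes ranked highest and the 12 ranked lowest in Htr7/Kit interneurons. Points with bars are ratios with 95% counting intervals, diamonds leave out each gene's highest 2% of nuclei, and crosses are all other kept nuclei. Epha6 stands at 1.55 against 0.960 in other nuclei, and Tafa1 moves from 0.320 to 0.706 without its highest nuclei.

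The 12 genes ranked lowest were Tafa1, Cemip, Nwd2, Syt6, Trmt9b, Anxa10, Zscan21, Cd163l1, Il31ra, Peli2, Pde6a and Cdh18. Tafa1, which encodes a secreted chemokine-like protein, had 602 control and 353 cKO UMIs, a ratio of 0.320 (0.280 to 0.366). A single control nucleus held 451 of the 602, and the ratio without the highest 2% was 0.706 (0.512 to 0.977). Cdh18, a cadherin gene, had 463 and 545 UMIs, a ratio of 0.643 (0.567 to 0.730), and 0.456 without its highest nuclei, while other kept nuclei stood at 1.08. The Cdh18 ratio was 0.562 (0.488 to 0.648) in nuclei with Xist and 0.880 (0.657 to 1.18) in those with a Y-linked and no Xist UMI. Peli2, a ubiquitin ligase gene, had 409 and 475 UMIs, a ratio of 0.635 (0.555 to 0.726), and was detected in 57.0% of control and 38.8% of cKO nuclei.

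Cemip, which encodes a hyaluronan-binding protein, was at 0.358 (0.234 to 0.543) from 61 and 40 UMIs, with 0.492 in other nuclei. Il31ra, a cytokine receptor gene, was at 0.519 (0.373 to 0.721), with 0.527 in other nuclei, and Anxa10, an annexin gene, at 0.4995 (0.368 to 0.678), with 0.598. Syt6, a synaptotagmin gene, was at 0.432 (0.291 to 0.639) and Nwd2 at 0.361 (0.237 to 0.545), with 1.01 and 1.00 in other nuclei. In nuclei with a Y-linked and no Xist UMI, Syt6 was at 0.121 (0.0310 to 0.342) and Pde6a at 0.244 (0.0814 to 0.617). Cemip, Il31ra and Anxa10 were thus lower in the other nuclei too, while Syt6, Nwd2 and Cdh18 stood near 1 there.

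Genes on the granule cell lists differed between the libraries. Some of them were detected in many of these interneurons, Btbd11 in 80.7% and Ntn1 in 47.4% of the control set. The 8 measured granule progenitor genes summed to 955 CPM in control and 810 CPM in cKO, a ratio of 0.848 (0.797 to 0.902), with 0 past the fold upward and 2 downward. In granule gate nuclei the same sum went from 1978 to 964 CPM. Ntn1, the netrin-1 gene, stood at 164 and 107 CPM, a ratio of 0.653 (0.557 to 0.766), against 0.110 in granule gate nuclei, and Gli2, a hedgehog pathway transcription factor gene, was at 0.616 (0.422 to 0.902). Of 14 granule neuron genes, Pax6 and Neurod1 passed the fold downward (beside 1.43% of all measured genes), at 0.665 (0.540 to 0.819) and 0.625 (0.418 to 0.936), and Reln was at 0.775 (0.692 to 0.868). Of the Htr7/Kit interneurons, 25 control (9.26%) and 30 cKO nuclei (5.15%) held 3 or more UMIs of granule markers, and the part of free RNA was not tested.

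The remaining lists gave single genes, to be read beside the 1.58% of all measured genes that passed upward and the 1.43% that passed downward. Sst passed among the 9 Golgi and Purkinje layer interneuron genes and the 2 neuropeptide genes, at 1.66 (1.27 to 2.20) from 73 and 222 UMIs. In thinned Htr7/Kit interneurons its shares of positive nuclei lay within the wide intervals of the few microglia. The Sst ratio was 1.51 in the C1ql3/Tll2 interneurons and 2.14 in all other kept nuclei. Among 17 S phase genes Atad2 passed downward, and among 16 genes of G2 and M phase Hjurp did, with summed ratios of 0.904 (0.852 to 0.960) and 0.952 (0.902 to 1.00). Ebf2 passed among 13 Purkinje cell genes, at 1.56, and was at 1.07 without its highest nuclei. Bcas1 passed upward among 3 oligodendrocyte lineage genes, and none of 3 microglia genes passed. Calb2 passed upward among 3 genes of glutamatergic nuclei and brush cells, while that list as a sum was lower, at 0.816 (0.7225 to 0.922). No vessel or immediate early gene reached 100 UMIs.

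**Figure D5:**
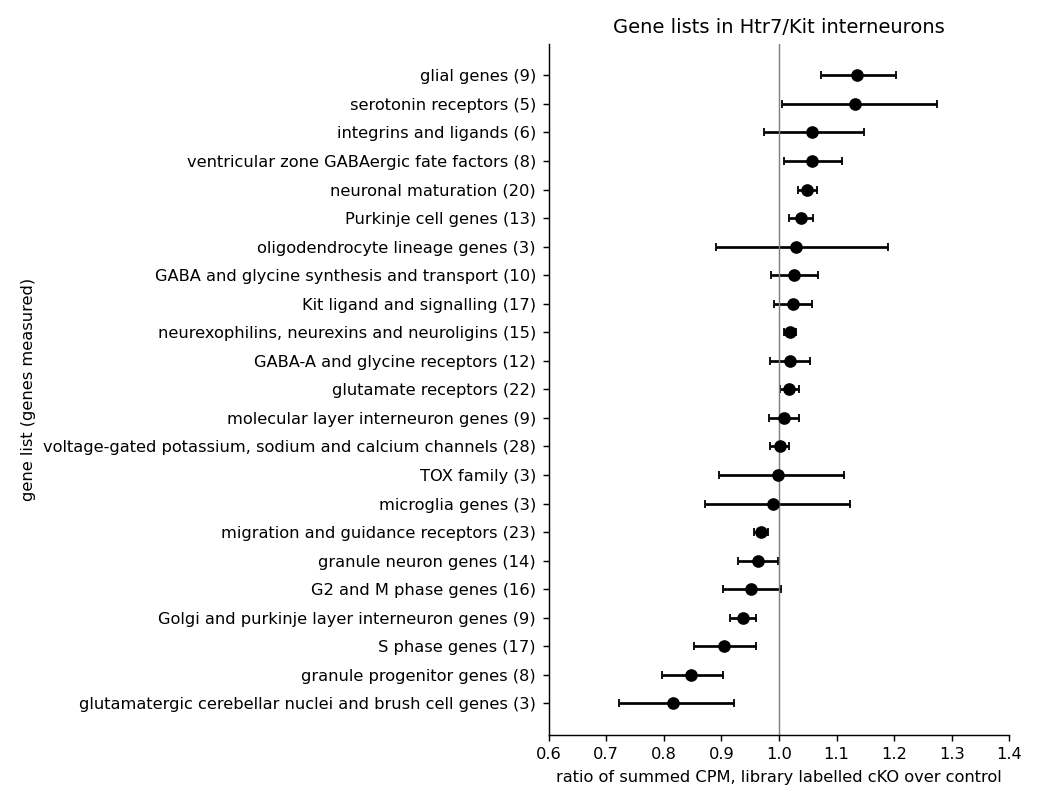
Ratio of the summed CPM of each gene list between the libraries in Htr7/Kit interneurons (linear axis, bars are 95% counting intervals). Lists with 3 or more measured genes are shown, other than the Y-linked and X inactivation genes. Most lists lie near 1. The glutamatergic nuclei and brush cell genes lie at 0.816, the granule progenitor genes at 0.848 and the glial and serotonin receptor genes at 1.14 and 1.13.

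Compared with the C1ql3/Tll2 interneurons of the same library, the Htr7/Kit interneurons were higher by 1.5-fold or more in both libraries for 582 of 8629 genes (6.74%) and lower for 355 (4.11%). The 5 genes used to tell the sets apart were left out of the ranking. Ptprt, a receptor tyrosine phosphatase gene, led those higher, at 1001 against 59.0 CPM in control (17.0-fold, 12.8 to 23.0) and 1030 against 134 CPM in cKO (7.68-fold, 6.62 to 8.95). Adamts18, a secreted metalloprotease gene, was 13.2-fold (7.61 to 24.97) and 8.98-fold (6.37 to 13.1) higher. Nfib, a nuclear factor I transcription factor gene, was at 2013 against 368 CPM and 2014 against 286 CPM, 5.47-fold and 7.05-fold higher. The other gate nuclei also held much Nfib, at 1635 and 1397 CPM.

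Among the other genes of the 15 ranked highest, Ntn1 was 7.55-fold (4.69 to 12.9) and 11.3-fold (6.53 to 21.5) higher, Epha5, an ephrin receptor gene, 9.05-fold and 6.30-fold, and Robo1 4.12-fold and 5.62-fold. Zfhx3 was 13.9-fold and 5.56-fold higher in the Htr7/Kit than in the C1ql3/Tll2 interneurons. Robo1, Zfhx3 and Epha5 were higher still in the other gate nuclei, so none of them belongs to the Htr7/Kit set alone. Robo1 stood there at 1550 and 1283 CPM and Zfhx3 at 556 and 410 CPM. Epha5 stood there at 208.3 and 183.5 CPM, against 174.3 and 169.1 CPM in the Htr7/Kit interneurons. Gldc, of the glycine cleavage system, was 7.82-fold higher in both libraries, at 113 against 14.4 CPM in control. Hhip, which encodes a hedgehog-binding protein, had 50 and 74 UMIs against 1 UMI in each library's C1ql3/Tll2 set. Gabbr2, a GABA-B receptor subunit gene, was 4.54-fold (3.43 to 6.10) and 7.19-fold (5.49 to 9.59) higher.

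Other genes were lower in the Htr7/Kit interneurons. Ptprm, another receptor tyrosine phosphatase gene, was at 228 against 1136 CPM in control and 208 against 1051 CPM in cKO, so the C1ql3/Tll2 set stood 4.99-fold (4.44 to 5.62) and 5.07-fold (4.62 to 5.56) higher. Rgs6, a regulator of G-protein signalling, was 4.20-fold and 5.58-fold higher there, Nr3c1, the glucocorticoid receptor gene, 4.44-fold and 5.05-fold, and Dpp10, a potassium channel auxiliary subunit gene, 3.81-fold and 4.71-fold. Gabra2, a GABA-A receptor subunit gene, stood at 78.3 against 330 CPM and 79.1 against 318 CPM, and Cntn3, a contactin gene, was 4.10-fold and 4.62-fold higher.

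Some of the noncoding genes on the same list lie inside the coding ones. Annotated antisense genes 1700016K05Rik (chr17:66714454-66720485, inside Ptprm), 4930587E11Rik (chr6:102266100-102336674, inside Cntn3) and Gm29530 (inside Rgs6) were all higher in the C1ql3/Tll2 interneurons, as their host genes were. The sources used here do not state how strand was treated in counting, so reads of these and of their host genes cannot be told apart.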

How the data were processed

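Single-nucleus RNA-seq (10x Genomics 3′ v3.1) was done on 2 libraries, 1 per group, and the deposited matrices hold raw UMI counts per gene and barcode, made by the authors with Cell Ranger 7.0.1 on mm10 (32285 genes). The study also removed free RNA, doublets and nuclei above a mitochondrial limit in later steps. None of these is in the deposited counts, and free RNA was not corrected here. Nuclei with 1000 or more genes and at most 5% mitochondrial UMIs were kept, which left 3816 control nuclei (21608527 UMIs) and 6217 cKO nuclei (33251186 UMIs). The selected nuclei held 1761736 and 3223852 UMIs.

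UMIs were summed over nuclei and scaled to CPM of the same nuclei. With 1 library per group no test was run. Intervals are exact at 95% (Clopper-Pearson for shares, Poisson for levels, conditional binomial for ratios) and cover counting error only. Genes with 100 or more UMIs over the selected nuclei of both libraries counted as measured, and 1.5-fold was the size used for counts. The named genes were those of the rule, the TOX family, the 12 highest and 12 lowest ratios between libraries and the 15 highest each way between interneuron sets, by the interval bound nearest to 1, and the 4 most counted genes of each of 27 lists with any past the fold. Microglia were nuclei with 10 or more marker UMIs, granule gate nuclei had 3 or more and Purkinje gate nuclei 5 or more. Microglia and granule gate nuclei also had no Gad1, Gad2 or Slc32a1 UMI, and Purkinje gate nuclei had 1 or more. The members and lists were chosen with earlier results of these data known. Doublets were kept, and removing them by Scrublet (scanpy 1.11.5) was an alternative. The alternatives changed the thresholds, genes of the rule, depth, sex of nuclei, scaling and fold. Sums and intervals used numpy 2.4.6, pandas 2.3.3 and scipy 1.17.1 in Python 3.11.15, and the counting was tested on simulated data. Gene positions came from GENCODE on GRCm38 and promoter sequences from RefSeq on GRCm38.p6. Results for a few listed genes are not reported here.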

Additional observations from a re-analysis of the deposited data

Results flagged for a closer look

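Nxph1 had ratios on opposite sides of 1 in the interneuron sets. Its ratio, the library labelled cKO over control, was 0.917 (0.891 to 0.945) in the Htr7/Kit interneurons and 1.10 (1.04 to 1.17) in the C1ql3/Tll2 interneurons. The first was 1.11 (1.06 to 1.17) in nuclei with a Y-linked and no Xist UMI and 0.989 (0.960 to 1.02) in those with 5 or more Nxph1 UMIs. The difference was not tested, since each group has 1 library.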

How the results depend on the processing

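No paired analysis was possible because each group has 1 library. The higher share of Htr7/Kit interneurons among kept nuclei was 1.06-fold (0.916 to 1.23) against nuclei outside the granule gate and 1.21-fold to 1.37-fold under the other alternatives, with an interval that held 1 in nuclei with a Y-linked and no Xist UMI. The Tox3 ratio was 0.252 in those nuclei and 0.717 with 5 or more Nxph1 UMIs. The 219 genes past 1.5-fold were 3.01% of 7272 measured. With nuclei thinned to 3000 UMIs and selected again, 132 of 2937 genes passed, a larger share (4.49%). Minima of 50 and 200 UMIs gave 642 of 9983 (6.43%) and 61 of 4645 (1.31%). Of the 7272 genes, 19 passed at a fold of 2 (0.261%) and 381 without each gene's highest 2% of nuclei (5.24%). The 582 genes higher than in C1ql3/Tll2 interneurons became 377 when thinned, 264 in Y-linked nuclei, 237 at a fold of 2 and 904 with the libraries pooled. The thinned and Y-linked counts come from fewer measured genes than the main count, so they are not shares of the same total. No list sum passed 1.5-fold, but 2 did in Y-linked nuclei and 1 with 5 or more Nxph1 UMIs.

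Some ratios crossed 1. Thinning gave 0.972 for Gm28370, 0.896 for Hs3st4, 3.39 for Nwd2 and 1.66 for Tafa1, and Y-linked nuclei gave 1.11 for Nxph1, 1.92 for Tafa1 and 0.178 for Gm42397. Gm42397 was at 0.946 without doublets and 0.632 without its highest nuclei, and Gad1 at 1.01 with 5 or more Nxph1 UMIs. Of the list sums, 5 or more Nxph1 UMIs gave 0.955 for Purkinje cell, 0.963 for glial and 0.985 for glutamate receptor genes, and a selection sum of 3 gave 0.974 for Purkinje cell genes. Y-linked nuclei gave 1.06 for Golgi and Purkinje layer interneuron genes and 1.06 for granule neuron genes, which were at 1.01 with no Calb1, Skor2 or Car8 UMI and 1.02 thinned. Guidance receptors were at 1.01 without nuclei holding other classes' markers, and neurexophilins, neurexins and neuroligins at 0.994 thinned and 0.998 by mean CPM of single nuclei. The causes were not tested. The sets by Nxph1 count, without other classes' markers, outside the granule gate and without the highest 2% were chosen after seeing the data. Under all alternatives together, 404 gene ratios and 327 list sums stayed within the interval of the value reported, and 48 and 64 left it, and 2 gene ratios and 13 list sums of these crossed 1 from an interval that held it, such as Pax2 at 1.16 and GABA and glycine synthesis genes at 0.948 when thinned and molecular layer interneuron genes at 0.942 to 0.978 under 5 alternatives. Genes near 100 UMIs have wide intervals, and 1 library per group is the main limit.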
